A study of Mus musculus with 4 samples.

Results

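Endothelial nuclei of the mouse hippocampus were taken from 4 single-nucleus RNA libraries by a rule on each barcode. A barcode had to hold at least 1000 unique molecular identifiers (UMIs, 1 per captured RNA molecule). At least 3 of the 6 endothelial genes Flt1, Cldn5, Slco1a4, Mecom, Ptprb and Abcb1a had to have 1 UMI or more each. Rbfox3 was held to 1 UMI at most, and Slc17a7, Gad1 and Gad2 together to 1 UMI at most. Other neuronal transcripts were not limited. This rule found 79 nuclei among 43592 barcodes of at least 1000 UMIs. The libraries came from adult mice of 2 genotypes. Control mice were Kat6a-f/f, so that their Kat6a alleles carried loxP sites, and Kat6a-cKO mice were Kat6a-f/f with NEX-cre. NEX-cre drives Cre recombinase from Neurod6, a gene of excitatory forebrain neurons. Endothelial cells of both groups thus carried the floxed alleles and are not the cells in which Cre is driven. The labels do not say that each library is a separate animal, and p-values then measure only the spread between these libraries.

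Brain endothelial cells line the vessels of the tissue and form the blood-brain barrier. Tight junctions seal the gaps between them, solute carriers bring glucose and amino acids in, ABC transporters pump lipophilic compounds out, and transport in vesicles is kept low. Wnt ligands from neural cells act through Frizzled-4 and beta-catenin in these cells to hold the barrier programme, VEGF and angiopoietin receptors control their growth, and pericytes and smooth muscle cells, together called mural cells, wrap them from outside within a shared basement membrane.

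The number of endothelial nuclei was 17 in Control 1, 11 in Control 2, 35 in Kat6a-cKO 1 and 16 in Kat6a-cKO 2. As a share of barcodes of at least 1000 UMIs this was 0.154% (95% exact binomial interval 0.0899 to 0.247%) and 0.101% (0.0506 to 0.181%) in Control, and 0.304% (0.212 to 0.422%) and 0.157% (0.0897 to 0.255%) in Kat6a-cKO; the intervals cover counting error only. The Kat6a-cKO libraries lay above both Control libraries, though Kat6a-cKO 2 exceeded Control 1 by far less than it fell short of Kat6a-cKO 1. The means were 0.128% ± 0.0375 (SD, n = 2) and 0.230% ± 0.104, a difference of 0.103 percentage points with p = 0.33 in a two-sided exact permutation test, the smallest value that 2 libraries against 2 can give. Without Kat6a-cKO 1 the difference was 0.0292 points. The total counts per library were 171323466 to 186897245 over all barcodes. Barcodes of at least 500 UMIs numbered 51879 and 64915 in Control against 19142 and 14328 in Kat6a-cKO, so a count of small nuclei is not comparable between the groups below the 1000-UMI minimum. Transcripts of the cre transgene were read 169 and 168 times among all other barcodes of Kat6a-cKO and 0 times in both Control libraries. In the other barcodes Kat6a itself was at 84.2 and 85.5 CPM (counts scaled to a total of 1000000) for Control against 79.2 and 78.8 CPM for Kat6a-cKO; where its reads fall relative to the floxed part is not known, so this level checks nothing. No endothelial barcode was an endothelial barcode in a second library, and 1 of the 79 was also a barcode of at least 1000 UMIs elsewhere.

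Endothelial nuclei were small. Their median was 2004 and 2757 UMIs for Control and 2105 and 4144.5 UMIs for Kat6a-cKO, against 11206 to 12365 UMIs over all barcodes of at least 1000 UMIs. The counts summed over them were 50043 and 51118 for Control against 143842 and 78401 for Kat6a-cKO, and a single nucleus gave 17.8%, 42.4%, 18.4% and 21.9% of these sums. Levels below are CPM of the sum of a library unless another group of nuclei is named, so they describe a library's endothelial RNA as a whole and weigh a large nucleus more. In these sums, fewer copies per nucleus and fewer nuclei with a transcript cannot be told apart.

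All 12 endothelial marker genes, including the 6 that the rule did not use, were at least 10 times higher than in the other barcodes of the same libraries (5 CPM added to both levels). Of the 1534 genes with enough counts for the genotype test below, 250 were. The 6 unused markers Pecam1, Tek, Kdr, Cdh5, Erg and Emcn together stood at 2178 and 1369 CPM for Control and 1696 and 1467 CPM for Kat6a-cKO. Nuclei just inside the rule, with exactly 3 markers, numbered 5, 2, 4 and 0, and carried the unused markers at 1929, 1524 and 2402 CPM where there were any. Barcodes just outside it, with 2 markers, numbered 6, 5, 14 and 10 and held 87.1, 156, 193 and 65.7 CPM of the same genes. Barcodes left out only by the neuronal limits, with 3 or more markers, numbered 5, 14, 20 and 19. They held 48.4, 38.9, 168 and 89.0 CPM of the unused markers, at medians of 13500 to 24373 UMIs. These values describe the choice of nuclei and were not tested.

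The gene that stood highest over the other barcodes was Flt1, which encodes VEGF receptor 1. Its counts were 180 and 179 for Control and 472 and 285 for Kat6a-cKO, or 3597, 3502, 3281 and 3635 CPM, with a mean of 3504 ± 159 CPM (SD, n = 4 libraries) against 1.93 ± 0.648 CPM in the other barcodes. Flt1 is a gene of the rule, so this level follows in part from the choice of nuclei. Adgrl4, an adhesion G protein-coupled receptor of endothelium that the rule did not use, followed among the endothelial genes with 1419, 2641, 2364 and 2385 CPM against 0.627 CPM elsewhere; Control 1 was the low library. Klf2, the shear-stress transcription factor, was at 1539, 1858, 2051 and 1492 CPM. Of the 20 genes of highest ratio, 4 belong to the rule (Flt1, Slco1a4, Mecom and Cldn5), 4 are haemoglobin genes (Hbb-bs, Hba-a1, Hba-a2 and Hbb-bt) and 3 are on the list of mural markers (Rgs5, Vtn and Ebf1). The rest were Adgrl4, Klf2, Igfbp7, Nostrin, Ly6c1, Slc2a1, Id1, Lef1 and Epas1. RNA outside nuclei, read from barcodes of 10 to 100 UMIs, also carried these transcripts, with Flt1 at 427 CPM and Cldn5 at 377 CPM on average, above the 1.93 and 0.412 CPM of the other barcodes.

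**Figure D1:**
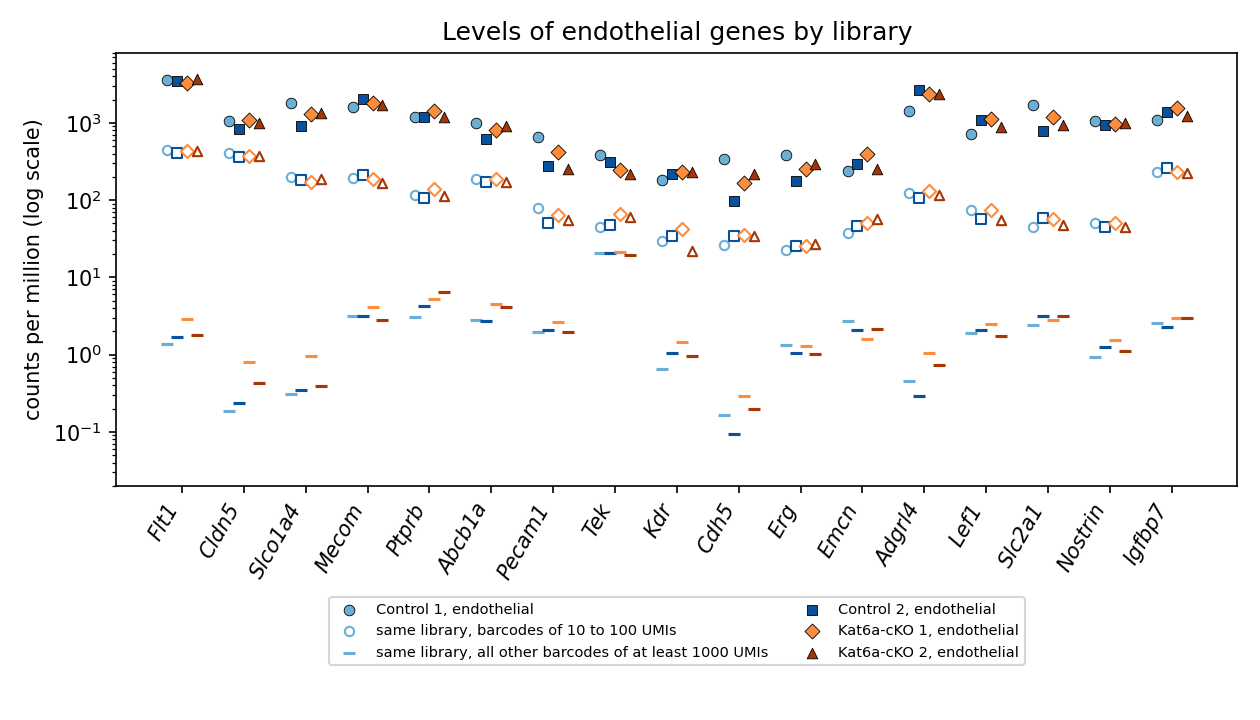
Level in CPM (log scale) of the 12 endothelial markers and 5 further endothelial genes in the endothelial sum of each library (filled symbols), in barcodes of 10 to 100 UMIs (open symbols) and in all other barcodes of at least 1000 UMIs (bars). Flt1 is at 3281 to 3635 CPM in the 4 endothelial sums, at a mean of 427 CPM in the smallest barcodes and at 1.93 CPM in the other barcodes.

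The 250 bases before the transcription start are shown for Flt1 and Adgrl4, the leading genes inside and outside the rule, and for the tight-junction gene Cldn5. The sequences are RefSeq's on GRCm38.p6, printed 5′ to 3′ on the strand of the gene, and lie at chr5:147726012-147726261 (minus strand), chr3:151437632-151437881 (plus strand) and chr16:18776597-18776846 (plus strand). Capitals mark AGGAAG, a core bound by ETS factors such as Erg and Ets1, on either strand.
Flt1: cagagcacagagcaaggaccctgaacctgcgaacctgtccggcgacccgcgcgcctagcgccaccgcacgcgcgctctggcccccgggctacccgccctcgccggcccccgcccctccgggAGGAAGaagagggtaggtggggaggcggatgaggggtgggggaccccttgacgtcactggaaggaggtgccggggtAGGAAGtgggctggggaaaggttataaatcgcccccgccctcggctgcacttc
Adgrl4: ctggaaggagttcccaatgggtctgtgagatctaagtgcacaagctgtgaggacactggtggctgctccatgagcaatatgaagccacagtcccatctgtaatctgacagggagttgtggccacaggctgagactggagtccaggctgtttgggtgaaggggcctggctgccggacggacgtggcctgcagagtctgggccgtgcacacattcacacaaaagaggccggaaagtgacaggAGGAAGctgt
Cldn5: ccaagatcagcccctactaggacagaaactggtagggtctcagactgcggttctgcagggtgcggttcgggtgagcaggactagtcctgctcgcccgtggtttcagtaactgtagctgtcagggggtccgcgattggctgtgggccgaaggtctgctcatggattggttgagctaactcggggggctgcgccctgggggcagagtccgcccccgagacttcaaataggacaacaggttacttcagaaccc
AGGAAG occurred 2 times in the Flt1 window, 1 time in that of Adgrl4 and 0 times in that of Cldn5. Of the 20 leading genes, 18 had a RefSeq window, and 6 of the 18 held AGGAAG (Flt1, Adgrl4, Slco1a4, Nostrin, Ly6c1 and Lef1), against 32.3% of 27025 genes. The SOX core ACAATG was in 2 of the 18 (Slco1a4 and Lef1) against 12.2% of genes, and the TCF/LEF core CTTTGAT in 1 (Mecom) against 3.72%. A gene was counted if any of its windows held the motif. Lef1 has 4 windows and held AGGAAG and ACAATG only in the most downstream, at chr3:131156044-131156293. Ly6c1 has 2 and held AGGAAG only at chr15:75048664-75048913. Mecom has 2 and held CTTTGAT only at chr3:30509760-30510009. Both strands were searched, the motifs do not contain each other, and a match is only a description of the letters.

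Many endothelial nuclei also held transcripts of mural cells. Counting 11 mural genes (Pdgfrb, Rgs5, Atp13a5, Vtn, Abcc9, Kcnj8, Notch3, Acta2, Myh11, Tagln and Cspg4), 34 of 79 nuclei held 3 UMIs or more, 40 held none and only 5 held 1 or 2. Ebf1, listed with the mural genes, was left out because nuclei with fewer than 3 UMIs of the other mural genes had it too, at 1928 CPM. The same minimum of 3 UMIs was met by 64 nuclei for neuronal, 34 for microglial and 32 for astrocyte markers. It was met by 13 for fibroblast, 11 for oligodendrocyte, 5 for oligodendrocyte precursor and 3 for perivascular macrophage markers. The number of nuclei alone thus does not set the mural genes apart. Their UMIs were 1352 in all, against 795 astrocyte, 677 neuronal and 276 microglial UMIs. The nuclei with at least 3 mural UMIs numbered 5 of 17 and 4 of 11 in Control (29.4% and 36.4%) and 14 of 35 and 11 of 16 in Kat6a-cKO (40.0% and 68.8%). The groups did not overlap. The difference of 21.5 percentage points had an exact permutation p of 0.33 (two-sided), the smallest that 2 libraries against 2 can give. When each nucleus was thinned to 1000 UMIs, the share with at least 2 mural UMIs gave an exact permutation p of 0.667. In the other barcodes of at least 1000 UMIs, which are deeper at medians of 11240 to 12379 UMIs, only 0.894% to 1.23% reached 3 mural UMIs.

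The nuclei with mural transcripts were the large ones. Their median was 4978 UMIs against 1731 UMIs in the others, and the 24 nuclei of at least 4000 UMIs all had mural transcripts, while the largest nucleus with fewer than 3 mural UMIs had 3604 UMIs. Among other barcodes of at least 4000 UMIs with 1 endothelial marker at most, 0.620% to 1.30% reached 3 mural UMIs. After each nucleus was thinned to 1000 UMIs, 32 of the 34 still held at least 2 mural UMIs; the other 45, of which 40 had none before thinning, could hardly reach that number. Nuclei with mural transcripts gave 74.2% of all endothelial counts and held the 12 endothelial markers at 10638 CPM, against 13410 CPM in the others. Whether they are 1 cell, 2 cells in 1 droplet or a fragment of vessel was not tested.

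**Figure D2:**
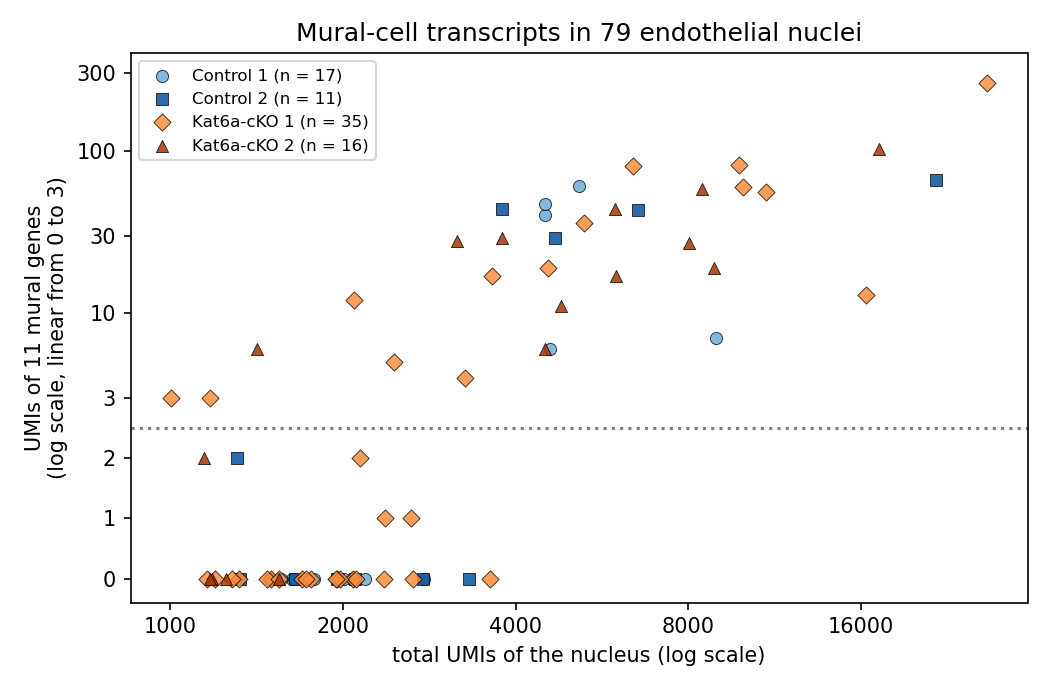
UMIs of 11 mural genes (log scale, linear from 0 to 3) against total UMIs (log scale) in each of the 79 endothelial nuclei, by library; the dotted line separates nuclei with at least 3 mural UMIs. The 24 nuclei of at least 4000 UMIs all lie above the line, and 40 nuclei lie at 0.

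From the mural side the overlap was smaller. Only barcodes of at least 1000 UMIs within the neuronal limits of the rule were counted here. Those with at least 3 different mural genes numbered 100, of which 29 were also endothelial by the rule and 71 were not. Mural barcodes above the neuronal limits are not among them. The 71 mural-only barcodes held Cldn5 at 0, 0, 32.4 and 0 CPM and Flt1 at 207, 383, 243 and 504 CPM, against 947 to 1334 CPM and 2560 to 3841 CPM in the 29 that met both. These 2 genes are part of the rule that sorted the barcodes, so this contrast was set by the sorting. Rgs5, a pericyte gene, was at 103, 100.7, 405 and 346 CPM in the mural-only barcodes and at 2827, 1635, 2471 and 1597 CPM in those that met both, so it was higher in the latter in every library. Atp13a5, another pericyte gene, went the other way, with 2480 to 3181 CPM in mural-only barcodes and 828 to 2347 CPM in those that met both.

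Levels of the listed genes in nuclei with and without mural transcripts were compared within each library. The genes were those of the endothelial, zonation and pathway lists, the immediate early and Kat6a complex lists included, without markers of other lineages except Ebf1. Of these, 115 had at least 40 counts in all. With mural transcripts 24 were higher in all 4 libraries, 12 were lower in all 4 and 79 were mixed, with a median ratio of 0.957. Over all 1824 genes of at least 40 counts, 12.5% were higher and 11.3% lower in all 4 libraries, against 20.9% and 10.4% of these 115. Klf2 was at 2421, 2506, 2786 and 1512 CPM with mural transcripts and 447, 208, 173 and 1272 CPM without. Bsg, which encodes the transporter partner basigin, was at 3938, 1716, 3105 and 2593 CPM against 402, 278, 396 and 1272 CPM. Cldn5, the barrier claudin, was at 1409, 1090, 1267 and 1012 CPM against 626, 208, 593 and 636 CPM. Ly6c1 (5.55-fold), Id1 (4.01-fold), Cxcl12 (3.82-fold) and the immediate early genes Dusp1 (3.01-fold) and Jun (3.32-fold) were also higher in every library. These folds are over the pooled nuclei, and in Kat6a-cKO 2 Id1 was nearly level, at 985 against 954 CPM. The transcription factors Mecom and Erg were lower with mural transcripts in every library. Mecom was at 976, 1798, 1122 and 1595 CPM with mural transcripts and 2325, 2637, 3609 and 2703 CPM without, 2.24-fold higher without over the pooled nuclei. Magi1 (2.96-fold), a junction scaffold, Ptprb (1.59-fold) and Pecam1 (1.58-fold) were also higher in nuclei without mural transcripts, as was Ocln, the tight-junction protein occludin, at 359 against 179 CPM over the pooled nuclei. Together with the first set went transcripts of mitochondrial genes, at 10555 CPM against 4658 CPM, and of ribosomal protein genes, at 16083 CPM against 9052 CPM, both higher in 4 of 4 libraries. Cldn5, Mecom and Ptprb are genes of the rule, and a nucleus of few UMIs had to hold 3 such genes to be chosen, which can raise their level in the smaller nuclei without mural transcripts. The nuclei with mural transcripts also include those richest in astrocyte and neuronal transcripts. A Control 2 nucleus with 244 astrocyte UMIs gave 21674 of the 36706 UMIs of that library's group. A Kat6a-cKO 1 nucleus of 16358 UMIs held 229 neuronal UMIs. In the nuclei without mural transcripts the most was 22 astrocyte and 29 neuronal UMIs. The part of RNA from other cells in these levels was not tested. The split follows mural UMIs and was set after the values were seen, so none of these differences was tested, and Kat6a-cKO 2 had only 5 nuclei without mural transcripts.

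**Figure D3:**
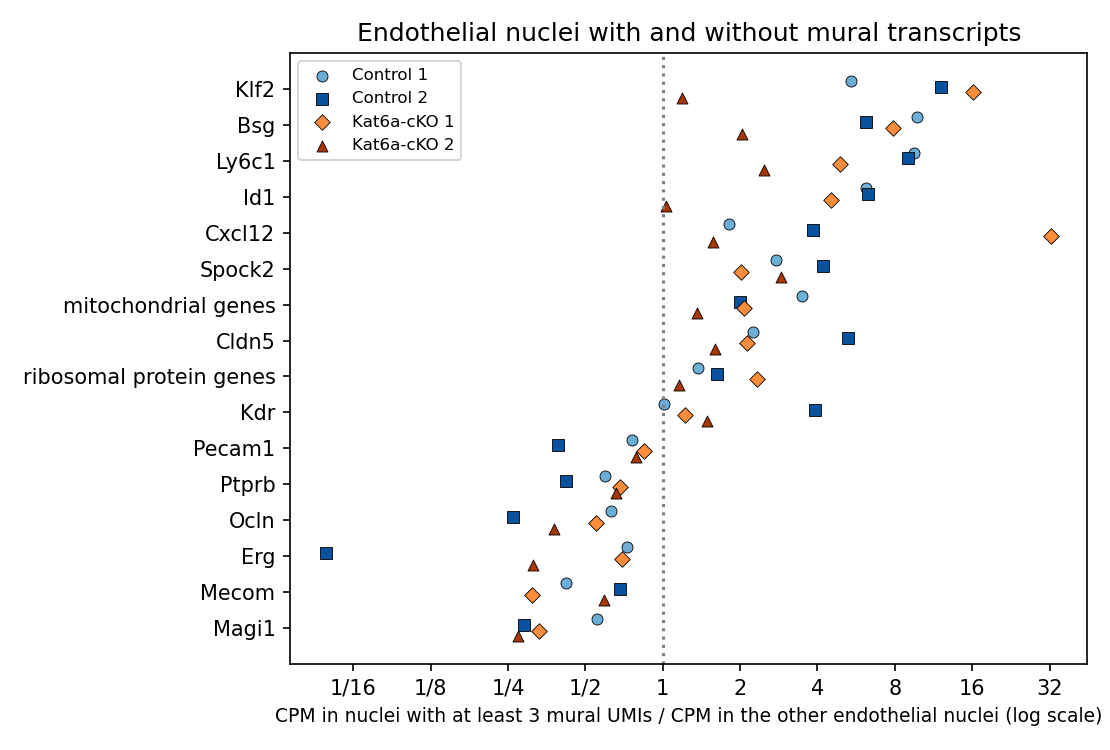
Ratio of the level (CPM) in endothelial nuclei with at least 3 mural UMIs to that in the other endothelial nuclei, on a log scale, 1 point per library, for 14 genes and 2 gene groups. Mecom, Erg, Magi1, Ocln, Ptprb and Pecam1 lie below 1 in all 4 libraries and the genes from Cldn5 to Klf2 lie above 1 in all 4.

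Markers of other lineages varied between libraries, and for some lists a few nuclei held much of them. The 3 nuclei richest in a list gave 57.9% of astrocyte, 43.4% of neuronal, 46.8% of oligodendrocyte precursor and 59.1% of perivascular macrophage marker UMIs. The last 2 lists had 47 and 22 UMIs in all. Other lists were spread more widely, with 20.3% for microglia, 21.9% for oligodendrocytes, 33.1% for mural genes and 38.8% for fibroblasts. Neuronal markers stood at 2318, 1193, 2663 and 1492 CPM, below the 8426 to 8949 CPM of barcodes of 10 to 100 UMIs. A single nucleus of Kat6a-cKO 1 with 16358 UMIs held 229 of the 677 neuronal UMIs. Astrocyte markers were at 739, 5634, 1293 and 3622 CPM, and 1 nucleus of Control 2, the library's largest at 21674 UMIs, held 244 of their 795 UMIs. In Control 2 the astrocyte markers thus stood above the 11 mural genes, which were at 3600 CPM. Microglial markers were at 663 to 1022 CPM with the defining genes P2ry12 and Tmem119 at 0, and fibroblast markers were at 97.8 to 383 CPM. Markers of choroid plexus and ependyma were at 0, 0, 27.8 and 76.5 CPM, with Ttr at 0 in every library, although these genes made up 5301 to 6704 CPM of barcodes of 10 to 100 UMIs. Scaled to the neuronal genes of the endothelial sums, that free RNA would make up 26.3%, 13.4%, 32.1% and 16.2% of them. These values are a scaling and not a measured share of free RNA. The part of free RNA in the endothelial sums was not tested. The neuronal UMIs of Kat6a-cKO 1 include the 229 of 1 nucleus.

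Haemoglobin transcripts ranked among the leading genes through 1 nucleus per library. Those nuclei held 2214 of 2226, 419 of 429, 687 of 730 and 2141 of 2155 haemoglobin UMIs, from 94.1% to 99.5% of them. All 4 nuclei had at least 3 mural UMIs. Without them haemoglobin fell from 44482, 8392, 5075 and 27487 CPM to 292, 340, 321 and 229 CPM, and the 4 libraries were then alike.

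**Figure D4:**
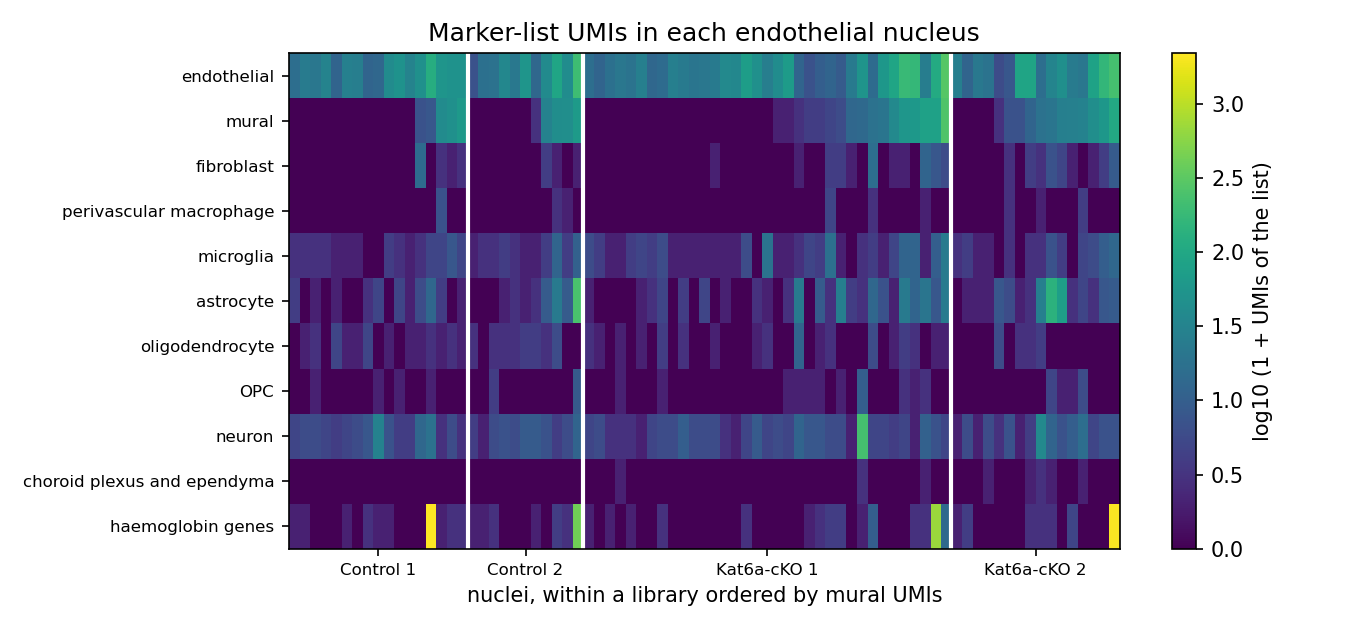
UMIs of each marker list and of 4 haemoglobin genes, as log10 (1 + UMIs), in each of the 79 endothelial nuclei, grouped by library and ordered by mural UMIs within a library. Mural UMIs are absent from the nuclei at the left of each library, and 1 column per library is bright in the haemoglobin row.

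Among barrier transporters all 27 genes listed were detected, 25 of them in all 4 libraries, and 25 were at least 2 times higher than in the other barcodes. Of the 1534 genes with enough counts for the genotype test, 787 were at least 2 times higher too. Slc2a1, the glucose transporter GLUT1 (chr4:119108711-119137983, plus strand), had 85 and 40 counts in Control against 173 and 73 in Kat6a-cKO, or 1699, 783, 1203 and 931 CPM; the 2 Control libraries were the highest and the lowest. Slco1a4 (OATP1A4) was at 1798, 900, 1293 and 1339 CPM, and Slco1c1, which carries thyroid hormone, at 1019, 704, 716 and 969 CPM. Of the efflux pumps, Abcb1a (P-glycoprotein) was at 999.1, 626, 813 and 906 CPM, Abcc4 at 859, 802, 1105 and 1122 CPM and Abcg2 (BCRP) at 619, 391, 619 and 638 CPM. Mfsd2a, the lipid carrier that keeps transcytosis low, had 44 counts in 28 nuclei. Slc7a5, the large neutral amino acid transporter, had 2 counts in all, and its partner Slc3a2 had 47.

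Among junction genes 23 of 24 were detected. Cldn5 (chr16:18776847-18778262, plus strand) had 53, 43, 155 and 77 counts, which is 1059, 841, 1078 and 982 CPM, a mean of 990 ± 107 CPM (SD, n = 4 libraries), and the groups overlapped; it is a gene of the rule. Tjp1 (ZO-1), which is shared by many cell types and was only 3.03 times the level in other barcodes, was at 1459, 1232, 1342 and 1250 CPM. Cdh5, VE-cadherin, had 17, 5, 24 and 17 counts, or 340, 97.8, 167 and 217 CPM. In the list of caveolae and transcytosis, where 15 of 16 genes were detected, the clathrin adaptor Picalm led at 1619, 1858, 1745 and 1862 CPM.

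In the Wnt and beta-catenin list 25 of 33 genes were detected. Lef1, a nuclear partner and target of beta-catenin (chr3:131110471-131224356, plus strand), led with 36 and 55 counts in Control against 160 and 69 in Kat6a-cKO, or 719, 1076, 1112 and 880 CPM against a mean of 2.05 CPM in other barcodes. It was found in 64 of the 79 nuclei. Of the receptors, Fzd6 was at 320, 254, 243 and 242 CPM and Fzd4, the Norrin receptor, at 160, 176, 90.4 and 153 CPM; in Fzd6 the Kat6a-cKO libraries were both slightly lower than either Control library. Apcdd1, a target and inhibitor of the pathway, was at 260, 157, 181 and 217 CPM. The ligands Wnt7a, Wnt7b and Ndp, which come from other cells, had 0 counts in all 4 sums, as did Rspo3 and the R-spondin receptor Lgr5; Axin2, a general target, had 9 counts. Rspo2, named in the title of the series, had 5 counts, all in the Kat6a-cKO 1 nucleus that held 229 neuronal UMIs, and in the other barcodes stood at 64.2 and 50.9 CPM for Control against 56.0 and 45.5 CPM for Kat6a-cKO.

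In the VEGF and angiopoietin list, Kdr (VEGF receptor 2) was at 180, 215, 229 and 230 CPM and Tek (the angiopoietin receptor TIE2) at 380, 313, 243 and 217 CPM. Ptprb, the phosphatase that acts on TIE2, was at 1179, 1174, 1411 and 1199 CPM. In the Notch list Maml2, which is as high in other barcodes, was the highest, and the specific members were rare: Notch1 had 30 counts, Jag1 37 and Dll4 9. In the BMP and TGF-beta list Bmpr2 was at 1319, 919, 932 and 1135 CPM and Eng (endoglin) at 240, 313, 375 and 306 CPM. All 28 endothelial transcription factors listed were detected, with Mecom (1579, 2035, 1821 and 1684 CPM), Klf2 and the hypoxia factor Epas1 (1579, 919, 1231 and 1671 CPM) as the highest. In the list of leukocyte adhesion, Vcam1 had 12 counts, Icam1 1 and Selp 0, while Pecam1 had 127.

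Arterial-type nuclei, with at least 2 different genes of the arterial list and more of them than of the venous list, numbered 5 of 17, 2 of 11, 9 of 35 and 7 of 16. These were 29.4% and 18.2% of the Control nuclei and 25.7% and 43.8% of the Kat6a-cKO nuclei, a difference of 10.9 percentage points within the spread between libraries (exact permutation p = 0.667, two-sided). Of the 23, 19 held at least 3 mural UMIs. Venous-type nuclei, by the mirror of that rule, numbered 3, 3, 6 and 2, or 17.6%, 27.3%, 17.1% and 12.5%. The difference was 7.64 points towards Control (exact permutation p = 0.33, the smallest that 2 libraries against 2 can give). Both differences turned round among the 45 nuclei with fewer than 3 mural UMIs, to 13.1 points higher in Control for arterial type and 6.43 points higher in Kat6a-cKO for venous type, and the venous one was 0.160 points when each nucleus was thinned to 1000 UMIs. The part of free RNA and depth in these calls was not tested further. Most single genes were thin: Vwf, of veins and large vessels, had 32 counts, Nr2f2, the venous transcription factor, 43, Sema3g, an arterial gene, 11, and Gja5, an arterial connexin, 0. The highest of the arterial list was Mgp with 126 counts, followed by Stmn2 with 34. Mgp was at 513 CPM in nuclei with at least 3 mural UMIs and at 35.9 CPM in the others. The part of RNA from other cells in the arterial-type calls was not tested.

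The comparison of Kat6a-cKO with Control asks whether loss of KAT6A directed to excitatory neurons goes with other expression in the vessels of the same tissue. Of 1534 genes with enough counts, 0 passed an adjusted p of 0.05 in edgeR's quasi-likelihood test (0.0% called), and 57 (3.72%) had an unadjusted p under 0.05. The DESeq2 fit took in 13813 genes, without that filter on counts. It also called 0, with 32 of the 13813 at an unadjusted p under 0.05, so its 32 and the 57 of edgeR are of unlike gene sets. In the edgeR test the median log2 fold change over all 1534 genes was 0.02 and the smallest adjusted p was 0.997. Without Kat6a-cKO 2 the same test called 27 genes (21 higher and 6 lower), without Kat6a-cKO 1 it called 1, and without either Control library it called 0. In counts simulated at the same depth, with the spread of the fitted trend, 170 of 193 genes changed 4-fold were called, as were 8 unchanged genes. Only 10 of 198 genes changed 2-fold were called, so a change of 2-fold or less was mostly not detectable with these nuclei. The simulation gave no gene a spread of its own and no weight to single nuclei. In the data Acta2, Crip1 and Gabra2 had log2 fold changes of 3.56, 2.53 and 4.15 and were not called. The 4-fold result does not carry over to such genes. Both Kat6a-cKO libraries lay above both Control libraries in 14.2% of the genes tested and below them in 16.8%.

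For main barrier and vessel genes outside the rule the test gave these limits. Slc2a1 differed by -0.18 on the log2 scale (95% interval -1.16 to 0.79) and Lef1 by 0.19 (-0.58 to 0.95). The genes of the rule chose the nuclei in every library, so their differences are held near 0 in part by that choice and are given as a description: 0.15 for Cldn5, 0.11 for Abcb1a, 0.00 for Flt1 and -0.01 for Mecom. Of 14 barrier transporters tested, which include Abcb1a and Slco1a4 of the rule, 0 were called, and the median log2 fold change was 0.02. Without overlap of the groups 1 was higher and 2 were lower, beside 14.2% higher and 16.8% lower of all 1534 genes. Slc6a6, the taurine transporter, was the transporter of smallest p, with 63 and 32 counts in Control against 61 and 34 in Kat6a-cKO, or 1259, 626, 424 and 434 CPM. Its log2 fold change was -1.10 ± 0.400 (SE; edgeR unadjusted p = 0.0287, adjusted p = 0.997), and Control 1 stood apart from the other 3 libraries.

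The other lists also held 0 called genes. In the junction list 12 genes were tested with a median log2 fold change of 0.05, in the Wnt list 9 with -0.05, in the list of caveolae and transcytosis 5 with -0.25, in the VEGF list 5 with 0.18 and among transcription factors 14 with -0.01. Of the 9 Wnt genes, 0 were higher and 3 (Fzd4, Fzd6 and Znrf3, the ligase that removes Frizzled) were lower without overlap, against 14.2% higher and 16.8% lower of all 1534 genes. The list of basement membrane and matrix receptors had the highest median apart from lists of 1 gene or of neuronal markers, at 0.40 over 11 genes, of which 4 were higher without overlap (Col4a1, Col4a2, Nid1 and Itgb1) and 0 lower, beside the same 14.2% and 16.8% of all genes. Nid1, the basement membrane linker nidogen-1, had 2 and 5 counts in Control against 31 and 14 in Kat6a-cKO, or 40.0, 97.8, 216 and 179 CPM, with a log2 fold change of 1.54 ± 0.583 (SE; edgeR unadjusted p = 0.0342, adjusted p = 0.997). Col4a1, the collagen IV chain, was at 500, 646, 862 and 906 CPM, with a log2 fold change of 0.66 (edgeR unadjusted p = 0.0667, adjusted p = 0.997). In the BMP and TGF-beta list, with a median of 0.34 over 9 genes, Id1, a target of BMP signals, was at 520, 665, 1050 and 982 CPM, with a log2 fold change of 0.81 ± 0.296 (SE; edgeR unadjusted p = 0.0296, adjusted p = 0.997). Pericytes also make basement membrane, and the share of nuclei with mural transcripts was higher in both Kat6a-cKO libraries (40.0% and 68.8% against 29.4% and 36.4%). The part of those nuclei in these values was not tested, since Nid1 and Id1 had too few counts to enter the fit without them. Among nuclei with mural transcripts Id1 was at 831 and 872 CPM for Control against 1344 and 985 CPM for Kat6a-cKO. In the other nuclei it was at 134 and 139 CPM against 297 and 954 CPM, the last value from only 5 nuclei.

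**Figure D5:**
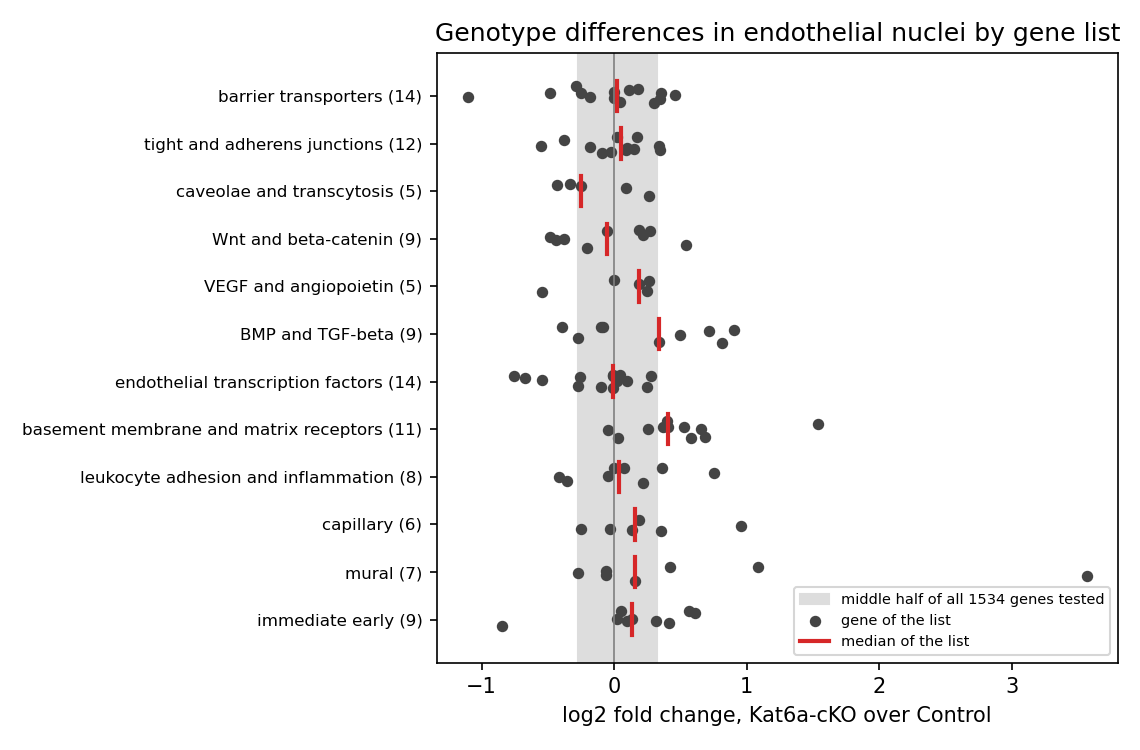
Log2 fold change of Kat6a-cKO over Control for every tested gene of 12 lists (points, number of genes in brackets), with the median of each list (red) and the range from the lower to the upper quartile of all 1534 genes (grey, -0.27 to 0.33). The medians of basement membrane and matrix receptors (0.40) and BMP and TGF-beta (0.34) lie above the grey range. Those of the other lists lie inside it, the lowest being caveolae and transcytosis (-0.25). Acta2 of the mural list is the point at 3.56.

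None of the 10 genes of smallest p passed the adjusted threshold. Acta2 (smooth muscle actin), Myl9 (a myosin light chain of smooth muscle), Crip1 and Mgp, a matrix protein of arteries, were higher in both Kat6a-cKO libraries. Acta2 had 3 and 0 counts in Control against 60 and 23 in Kat6a-cKO, or 59.9, 0, 417 and 293 CPM, with a log2 fold change of 3.56 ± 0.768 (SE). Crip1 had 5, 2, 61 and 29 counts (log2 fold change 2.53 ± 0.505, SE, edgeR unadjusted p = 0.00166) and Mgp had 4, 9, 77 and 36 (1.98 ± 0.453). Without Kat6a-cKO 2 these 3 genes passed the threshold, with edgeR adjusted p of 0.000526 for Acta2, 0.00703 for Crip1 and 0.0137 for Mgp. Without Kat6a-cKO 1 the adjusted p was 0.997, 0.854 and 0.474, and without either Control library it ranged from 0.219 to 0.680. The log2 fold change of Acta2 was 8.05 without Control 1, where the remaining Control library has 0 counts, and 2.57 without Control 2; that of Crip1 was 3.34 and 1.998, and that of Mgp 1.53 and 2.64. These counts sat in few nuclei: 1 nucleus of Kat6a-cKO 1 with 81 mural UMIs gave 50 of 86 Acta2 counts, 35 of 97 Crip1 counts, 32 of 76 Myl9 counts and 31 of 126 Mgp counts. In nuclei with fewer than 3 mural UMIs, Crip1 was at 12 CPM against 400 CPM in the others, Mgp at 35.9 against 513 CPM and Myl9 at 35.9 against 304 CPM. Acta2 is among the 11 genes that define this split, so its 0 CPM against 359 CPM was set by the split.

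Gabra2, Cacnb2, Nrxn3 and Trpc4 were also higher in both Kat6a-cKO libraries. Gabra2, a GABA-A receptor subunit, had 0, 1, 29 and 15 counts, with a log2 fold change of 4.15 ± 0.960 (SE). Cacnb2, a calcium channel subunit, had 4, 1, 46 and 16 counts, Nrxn3, a synaptic adhesion gene, 9, 8, 57 and 47, and the cation channel gene Trpc4 4, 4, 35 and 16. The Kat6a-cKO 1 nucleus with 229 neuronal UMIs gave 27 of 45 Gabra2 counts, 35 of 67 Cacnb2 counts and 33 of 121 Nrxn3 counts. In Kat6a-cKO 2, 1 nucleus with 36 neuronal UMIs gave 32 of the 121 Nrxn3 counts and 6 of the 67 Cacnb2 counts, and another with 141 astrocyte UMIs gave 11 of the 45 Gabra2 counts. Most counts of Gabra2 and Nrxn3 in either Kat6a-cKO library thus came from 1 nucleus. Without nuclei of at least 20 glial or neuronal UMIs, Nrxn3 differed by 0.14 on the log2 scale in place of 1.58. Of the 59 Trpc4 counts no nucleus gave more than 7, and the 2 richest held 82 and 36 mural but only 6 and 3 neuronal UMIs. Trpc4 was at 233 CPM in nuclei with mural transcripts and 35.9 CPM in the others.

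The 2 lower genes were Myo1d and Arhgef2. Myo1d, an unconventional myosin at 7.71 times its level in other barcodes, had 35 and 45 counts in Control against 54 and 29 in Kat6a-cKO, or 699, 880, 375 and 370 CPM. Its log2 fold change was -1.05 ± 0.310 (SE; edgeR unadjusted p = 0.0122, adjusted p = 0.997), with both Kat6a-cKO libraries well below both Control libraries and counts spread over 51 nuclei. It was higher in nuclei without mural transcripts (922 CPM) than in those with them (359 CPM), and without the nuclei with mural transcripts its log2 fold change was -1.54, again not called. Arhgef2 had 14, 11, 12 and 5 counts, with a log2 fold change of -1.66 ± 0.487 (SE).

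Kat6a had 19 and 13 counts in the endothelial sums of Control against 26 and 10 in those of Kat6a-cKO, or 380, 254, 181 and 128 CPM. The Kat6a-cKO libraries were both lower than either Control library, as in 16.8% of all 1534 genes tested. The log2 fold change was -0.97 ± 0.408 (SE, edgeR unadjusted p = 0.0503, adjusted p = 0.997), on counts from 27 nuclei. The Control 2 nucleus with 244 astrocyte UMIs gave 6 of the 13 counts of that library, and 1 nucleus of Kat6a-cKO 1 gave 6 of its 26. Where reads of Kat6a fall relative to the floxed part is not known, so this level is no measure of loss of the gene. The cre transgene had 1 count in all endothelial sums, in Kat6a-cKO 1. Its paralogue Kat6b was at 140, 117, 139 and 153 CPM, and Brpf1 and Brpf3, scaffold subunits of the complex, had 0 counts.

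Whether the genotype effect differed between endothelial nuclei and all other barcodes was asked with an interaction term between class and genotype, with the library as a block. Of 20423 genes 1 passed an adjusted p of 0.05 in edgeR (0.0049% called), and 365 had an unadjusted p under 0.05. Most of the 20423 entered through the far deeper other barcodes. Only 13813 genes had any endothelial count, and 1534 passed the filter in the endothelial sums alone. Over these 1534 the same edgeR test called 0, and 70 had an unadjusted p under 0.05. The gene called among the 20423 was Mlip (chr9:77102081-77352969, minus strand), which encodes a lamin-interacting protein. It had 0, 0, 76 and 0 counts, all 76 in the Kat6a-cKO 1 nucleus with 229 neuronal UMIs, and stood at 150 ± 11.5 CPM (SD, n = 4 libraries) in the other barcodes. Leaving out Kat6a-cKO 1, or any other library, left 0 genes called.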

How the data were processed

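Single-nucleus libraries of the 10x type were compared, 2 of Control and 2 of Kat6a-cKO mice, grouped by their titles. The authors deposited raw UMI counts per barcode and gene for all barcodes; the submitters' processing notes name mm10 and Seurat 4.0.1, and the aligner, annotation and counting strand are not given in the sources used here. Of 55422 gene IDs, 55154 were given a symbol and 54587 matched GENCODE M21 with their version. The members and gene lists were chosen with earlier results of these data known. Counts were summed per library and tested with edgeR 4.0.16 (R 4.3.3; TMM, filterByExpr, quasi-likelihood, Benjamini-Hochberg); DESeq2 1.42.0 was an alternative. Shares were compared by exact permutation in scipy 1.17.1 (Python 3.11.15). The procedure was tested on simulated counts. No doublet caller was run; nuclei with other markers were left out as alternatives. Genes named were those past the threshold or the 10 of smallest p, the 4 highest and any of unadjusted p under 0.05 in each pathway or zonation list, the 20 of highest ratio to other barcodes (at least 100 CPM), the genes of the rule, Kat6a, and genes past the interaction threshold; others were named after their values were seen. CPM values are counts scaled to the library's endothelial sum.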

Additional observations from a re-analysis of the deposited data

Results flagged for a closer look

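Mlip differed in its genotype effect between endothelial nuclei and all other barcodes. The interaction estimate was 16.3 on the log2 scale (edgeR adjusted p = 0.00428). It rests on 76 counts of 1 nucleus against 0 in the other 3 endothelial sums, so the estimate depends on the prior count and is no bound. Over leaving out each library in turn the estimate was 0.09 to 17.58, and without any one library it did not pass the threshold.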

How the results depend on the processing

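The count of 0 genes changed with genotype stayed at 0 with DESeq2 size factors, with DESeq2 (13813 genes tested), at minimums of 500 and 2000 UMIs, and at 4 of 6 markers. The count also stayed at 0 after free RNA, scaled to neuronal genes, was subtracted, though that scaling is not a measured share of free RNA. In settings chosen after seeing the data it was 0 of 1164 genes tested without nuclei of 20 glial or neuronal UMIs, 0 of 1276 without those above 10000 UMIs, and 0 of 1359 with the free RNA of 500 to 900 UMIs. It was also 0 without nuclei with mural transcripts (286 genes tested) and at 1000 UMIs per nucleus (226). Another fit left out nuclei with at least 3 UMIs of the mural, fibroblast, microglial, astrocyte, oligodendrocyte or oligodendrocyte precursor list, Ebf1 not counted. That fit gave 0 of 104 genes, and neuronal UMIs were no ground for leaving a nucleus out. So few genes in these fits, without Acta2, Crip1 or Mgp, say nothing on stability. The count was 19, all higher, with no filter on low counts. Leaving out each library in turn gave 0 to 27 genes; it was 27 without Kat6a-cKO replicate 2 (21 higher, 6 lower) and 1 without Kat6a-cKO replicate 1, and a group of 1 library is assumed to vary like the other. Whether the replicate numbers pair the libraries is not known. The correlation of deviations was 0.19, and with 2 libraries per group this 1 value cannot settle it. With the replicate block 2 genes, Acta2 and Crip1, were called. Fold changes of 14 named genes kept their direction in all 201 values. Most of these genes were named for a small p in the same data, so the kept direction was largely set by that choice. It is no measure of stability. The interaction count of 1 was 1 with no filter, 0 after subtraction of free RNA, 0 over the genes of the endothelial test alone, and 0 in each leave-one-out fit. The share difference kept its sign, from 0.0292 to 0.176 points over leaving out each library. The difference in arterial-type nuclei was 1.92 to 20.0 points and that in venous-type nuclei -12.5 to -2.83 points over leaving out each library; among nuclei with fewer than 3 mural UMIs they were -13.1 and 6.43 points. The cause was not tested. The planned fit without nuclei of the mural, fibroblast or glial lists, with Ebf1 counted, could not be made, because 0 counts were left in Control 1. Most nuclei hold Ebf1 of the mural list.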
